A study of Mus musculus with 11 samples.

Results

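The liver makes most of the complement and clotting proteins of plasma, and 48 genes of these cascades were described here in liver RNA. They were chosen by name, as complement components, coagulation factors and their inhibitors and receptors, with earlier results of these data already known. Of the 48, the table of 13669 genes held 44, and 43 were among the 13334 genes tested. *C5ar1*, *Plat*, *Plau* and *A2m* were not in the table, and *Thbd* (thrombomodulin, an endothelial cofactor of protein C activation) had 2 to 18 reads per liver and fell under the filter on low counts (over 10 reads in 5 livers or more).

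The livers came from 11 wild-type male C57BL/6J mice kept on chow. All had received a recombinant adeno-associated virus of serotype 8 by the tail vein, with expression from the liver-specific LP1 promoter, so that the controls carried virus too. In 6 animals the insert was a tough decoy (AAV-TuD), an RNA that binds *miR-541* and *miR-379* at a site for each, and a negative control sequence was used in the other 5 (AAV-NC). The time after injection for these animals was not given in the sources used here.

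Complement is a chain of plasma proteases and their substrates. The classical and lectin pathways begin with recognition proteins and the proteases C1r, C1s and MASPs, all pathways meet at C3, and C5b to C9 form the pore of the membrane attack complex. Coagulation runs in parallel: the contact system (factor XII, prekallikrein, kininogen, factor XI) and the tissue factor route (factor VII) both lead to factor X and thrombin, which turns fibrinogen into fibrin, while antithrombin, protein C and protein S restrain the chain and plasmin dissolves the clot. Factors II, VII, IX and X and proteins C and S need vitamin K for a modification of their glutamate residues.

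The 5p arms of the targeted miRNAs, the arm not being given in the sample labels, are printed from RefSeq (GRCm38.p6, chromosome 12, plus strand) with the seed, bases 2 to 8, in capitals; the seeds differ:
mmu-miR-379-5p, chr12:109709065-109709085: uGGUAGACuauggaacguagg
mmu-miR-541-5p, chr12:109742422-109742446: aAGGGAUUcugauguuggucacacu

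A full complement of a seed was rare in the longest annotated 3′ UTR of the members. For miR-379-5p it was present in *Klkb1* and *Mbl1*, 2 of 43 members (4.65%), and in 5.17% of the 10959 tested genes with a 3′ UTR. For miR-541-5p it was present in *Cfp* alone, 1 of 43 (2.33%), against 8.95% of the same genes. The 3 stretches found are shown, with the complement of the seed in capitals; shorter matches and other parts of the transcripts were not searched:
*Klkb1*, miR-379-5p: ataatggtGTCTACCtcacatcc
*Mbl1*, miR-379-5p: agccctctGTCTACCtgactgta
*Cfp*, miR-541-5p: taaAATCCCTtgcttcca

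*Klkb1* was lower with AAV-TuD, *Mbl1* and *Cfp* did not pass the test, and the other 8 of the 9 members past the test held no match to either seed. The study reported that the decoy also lowered, in liver, the transcripts that host these miRNAs and other miRNAs of the same cluster. Seeds of those other miRNAs were not searched. A match is a sequence description only; pairing was not measured.

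Libraries held 8148531 to 12043959 reads, and members took 1.10 to 1.89% of them. Reads on the *Mup* genes (major urinary proteins, abundant in male mouse liver) took 8.09 to 38.6%, most in AAV-NC 7, AAV-TuD 3 and AAV-TuD 5. Levels are therefore given as CPM, read counts scaled to a common library size by TMM, a factor set by the bulk of the genes. All 10 hepatocyte markers were detected and tested, with a summed level of 34489 to 40513 CPM in AAV-NC and 42989 to 49248 CPM in AAV-TuD. *Alb* held most of this sum, at a mean of 21096 CPM in AAV-NC and 28044 CPM in AAV-TuD, and did not pass the test. Of the 10 markers, 7 had fitted values below 0 (median log2 fold change -0.11), and 2 were lower (*Hnf4a* and *Asgr1*). Of all genes tested, 4.33% were lower, and of the most abundant 10% of genes 18.7%.

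Of the 43 members tested, 7 were lower and 2 higher with AAV-TuD at an adjusted p under 0.05 (quasi-likelihood test of edgeR). The lower ones were *F7*, *Klkb1*, *Kng1*, *F10*, *F9*, *C8a* and *Masp1*, and the higher ones were *C3ar1* and *Pros1*. Of the lower genes, the fitted level decreased by 15.7% for *Masp1*, the smallest change, and decreased by 29.6% for *F7*, the largest. Members lower were 16.3% of those tested, against 4.33% of all genes, and members higher were 4.65%, against 7.24% of all genes. The members are abundant genes: 31 of the 43 members were among the most abundant 10% of genes, where 6 of the 31 (19.4%) were lower, against 18.7% of all 1334 genes at that level. In that comparison, made after the values were seen, the members were lower about as often as other abundant genes, and the median log2 fold change was -0.15 for the members and -0.13 for those 1334 genes. Among the less abundant genes, 1 of 12 members (8.33%) was lower. It was *F7*, in the next most abundant 10% of genes, where 1 of 6 members was lower, against 8.10% of all 1333 genes at that level. For the 12 members together, the share among all genes outside the most abundant 10% was not computed. Over all 43 members the median was -0.14, against -0.00 for all genes, and 32 fitted values were below 0. From these libraries, the study listed the complement and coagulation cascades of the KEGG database among the top pathways of its downregulated genes. The genes that served as its reference were not given in the sources used here.

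**Figure D1:**
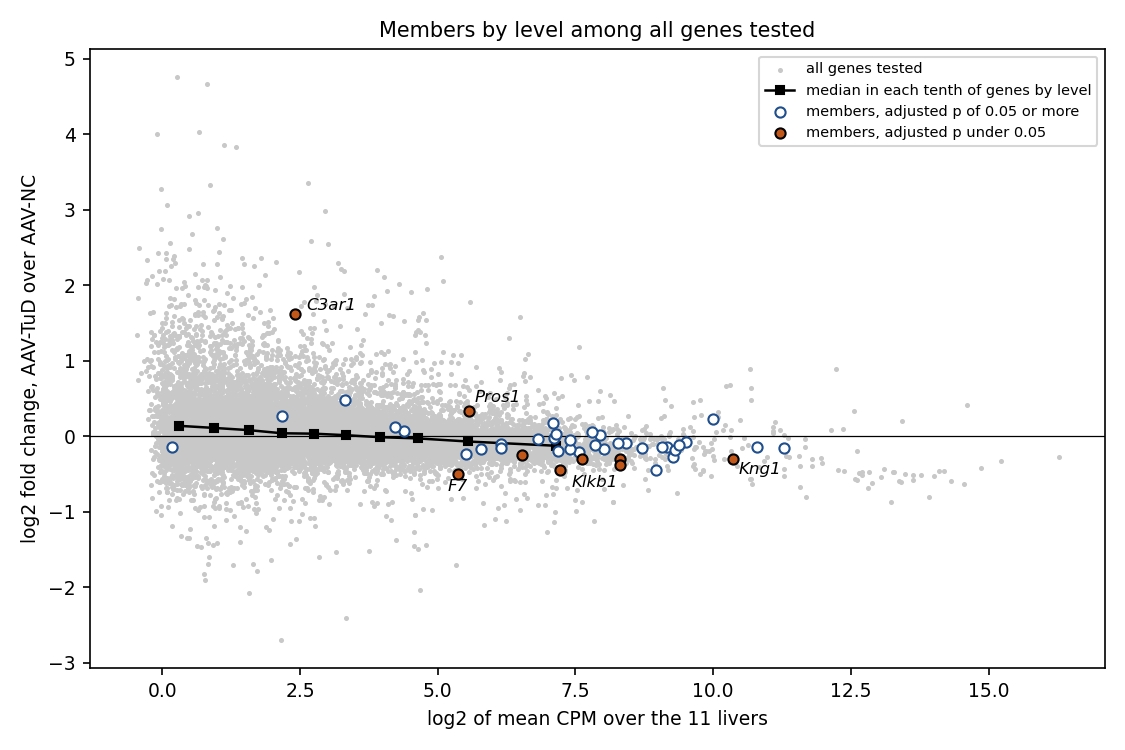
Log2 fold change with AAV-TuD over AAV-NC (vertical axis) against log2 of the mean CPM over the 11 livers (horizontal axis) for the 13334 genes tested (grey), with the 43 members as circles, filled where the adjusted p was under 0.05. The line joins the medians of 10 classes of genes by level, about equal in number; it falls from 0.14 in the lowest class to -0.13 in the highest, where 31 of the members lie.

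The members are taken by step below, and their fold changes with 2 standard errors are plotted by step. Complement gave 2 lower genes of 21 (9.52%), and coagulation and fibrinolysis 5 of 22 (22.7%). Of all genes 4.33% were lower, and of the most abundant 10% of genes 18.7%. The difference between the cascades was not tested.

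**Figure D2:**
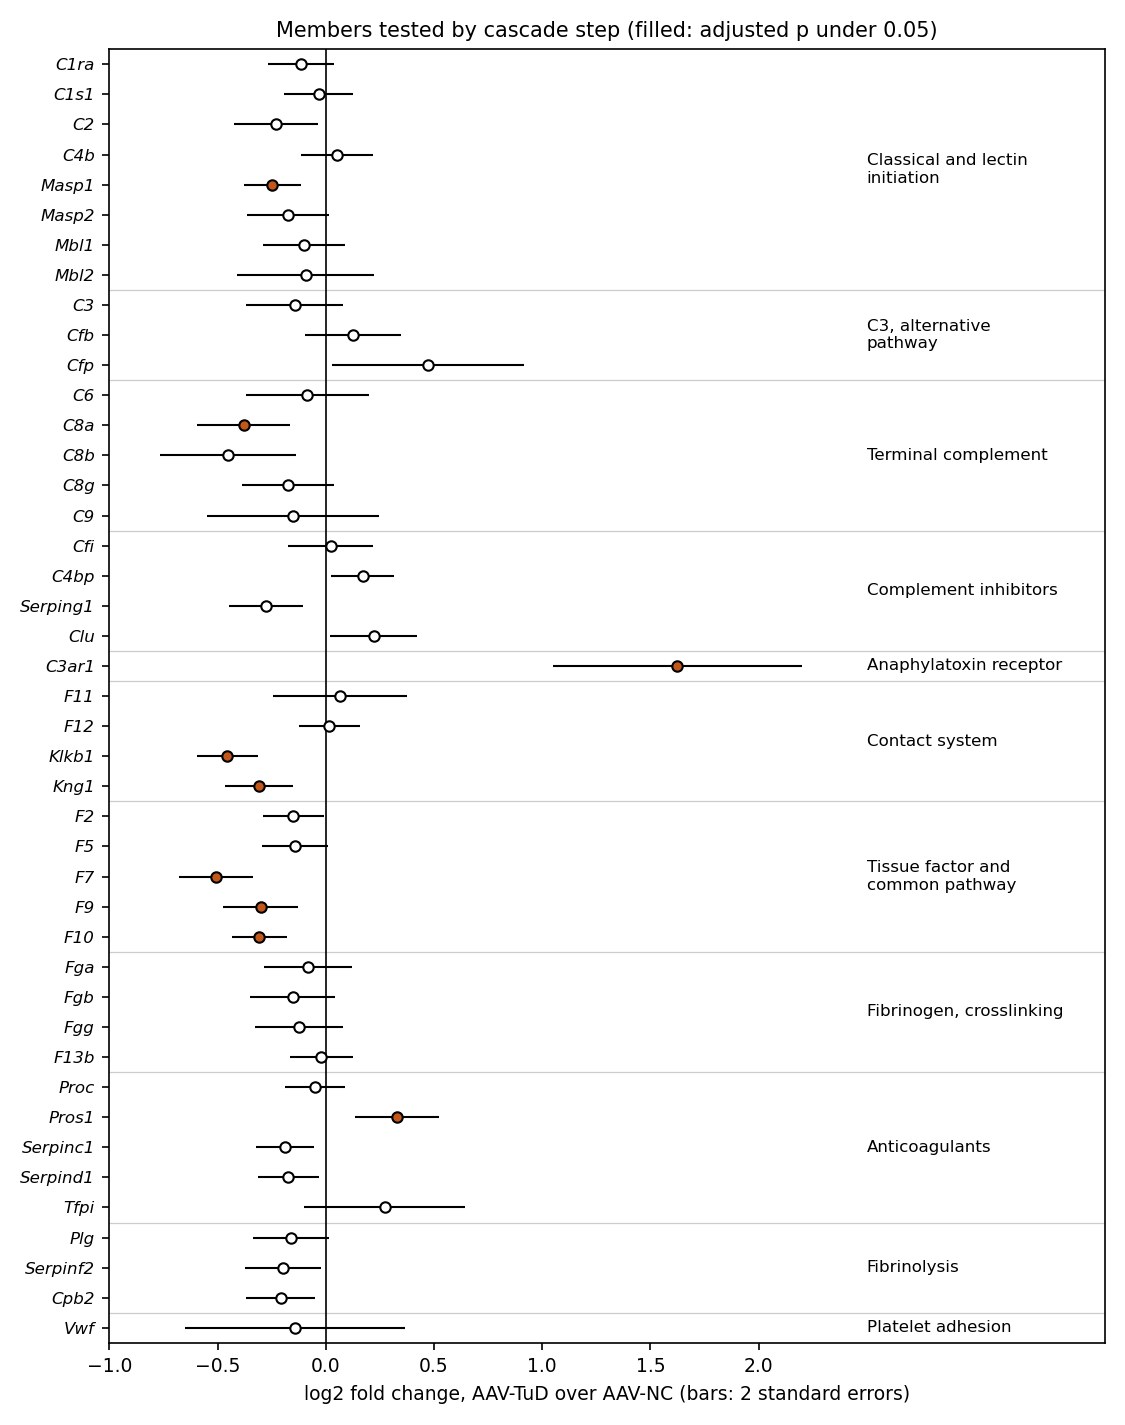
Log2 fold change with AAV-TuD over AAV-NC (horizontal axis, bars of 2 standard errors) of the 43 members tested, grouped by cascade step; filled points had an adjusted p under 0.05. The lower calls are *Masp1*, *C8a*, *Klkb1*, *Kng1*, *F7*, *F9* and *F10*, and the only value above 1 is that of *C3ar1*, at 1.62.

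The step of tissue factor and common pathway factors, in which *F9* was also placed here, held 3 of the 7 lower genes among its 5 members. *F7* encodes factor VII, the protease that tissue factor activates, and was the member with the largest fall. It was 52.5, 47.0, 50.1, 44.3 and 53.3 CPM in the 5 AAV-NC livers and 37.8, 30.2, 38.3, 33.6, 38.3 and 31.0 CPM in the 6 AAV-TuD livers. No AAV-TuD liver reached the lowest AAV-NC liver. The log2 fold change was -0.51 (SE 0.086, adjusted p = 0.0022).

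*F10* encodes factor X, which forms the enzyme that makes thrombin, and lies 1.5 kb downstream of *F7* on the same strand of chromosome 8. It was 350, 363, 329, 358 and 365 CPM in AAV-NC and 298, 262, 291, 284, 293 and 285 CPM in AAV-TuD. The groups did not overlap. It differed by a log2 fold change of -0.31 (SE 0.063, adjusted p = 0.0062), a smaller size than that of its neighbour, and the difference between the genes was not tested. A stretch of 102 bases at the end of its transcript is 92.2% identical to *Rgs7bp*, so some reads could have been shared with that gene, which had 2.59 CPM in AAV-NC and 2.91 CPM in AAV-TuD.

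*F9* encodes factor IX, the protease lacking in haemophilia B. It was 200.5, 194, 222, 260.1 and 217 CPM in AAV-NC and 198, 154, 194, 173, 174 and 173 CPM in AAV-TuD. The groups overlapped, with AAV-TuD 3 above the lowest AAV-NC liver. Its log2 fold change was -0.30 (SE 0.087, adjusted p = 0.035), and the call was lost without any one of AAV-NC 6, 7 or 8 or AAV-TuD 4, 9, 10 or 11, where the adjusted p reached at most 0.091.

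*F5*, the cofactor of factor X and the gene of this step with most reads, was 578 to 655 CPM in AAV-NC and 505 to 619 CPM in AAV-TuD (log2 fold change -0.14, SE 0.076, adjusted p = 0.25). *F2*, prothrombin, had a log2 fold change of -0.15 (SE 0.072, adjusted p = 0.198). Neither passed the test.

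In the contact system, 2 of 4 genes were lower. *Klkb1* encodes plasma prekallikrein, which factor XII turns into kallikrein. It was 180, 182, 160.3, 175 and 178 CPM in AAV-NC and 137, 113, 123, 131, 122 and 141 CPM in AAV-TuD. The lowest AAV-NC liver stood above every AAV-TuD liver, and the log2 fold change was -0.45 (SE 0.071, adjusted p = 0.0012).

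*Kng1* encodes kininogen, the carrier of prekallikrein and the source of bradykinin. It was 1523, 1393, 1496, 1385 and 1524 CPM in AAV-NC and 1197, 1110, 1123, 1225, 1168 and 1274 CPM in AAV-TuD. The groups did not overlap. The log2 fold change was -0.31 (SE 0.078, adjusted p = 0.018). Its last 498 transcript bases are 97.6% identical to those of *Kng2*, so reads may have been split between these genes in counting; *Kng2* was lower as well (log2 fold change -0.31, SE 0.097, adjusted p = 0.049).

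The other contact genes did not pass the test. *F12*, factor XII, was 229 to 261 CPM in AAV-NC and 233 to 283 CPM in AAV-TuD, with a log2 fold change of 0.02 (SE 0.071, adjusted p = 0.92). *F11*, which lies 4.66 kb from *Klkb1* on the same strand, was 13.9 to 24.7 CPM in AAV-NC and 16.2 to 26.6 CPM in AAV-TuD (0.07, SE 0.15, adjusted p = 0.84). Its interval of 2 standard errors runs from -0.24 to 0.37.

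Within a liver, the ratio of reads on 2 genes does not depend on scaling. Of 18 such ratios between members, computed after the values above were seen, 4 did not overlap between the groups, and all 4 had *F12* below the line, a gene taken because its own change was near 0. *Klkb1* over *F12* was 0.644 to 0.790 in AAV-NC and 0.433 to 0.583 in AAV-TuD, and *F7* over *F12* was 0.176 to 0.229 and 0.128 to 0.165. *Kng1* and *F10* over *F12* were separated in the same way. The other 14 overlapped, among them *Klkb1* over *F11*, *Klkb1* over *Kng1*, and *F7*, *F9* and *F10* over *F5*. *Klkb1*, *F7*, *Kng1* and *F10* were already apart between the groups on their own. *F12* was picked on TMM-scaled values, so its ratios are no separate evidence on the scaling. No test was made on the ratios.

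The promoters of these neighbouring genes are shown because in one pair both genes fell and in the other only *Klkb1* passed the test. Each runs from 250 bases before to 50 bases after the RefSeq start (GRCm38.p6), with matches to the motifs named below in capitals:
*F7* promoter, chr8:13025784-13026083, plus strand: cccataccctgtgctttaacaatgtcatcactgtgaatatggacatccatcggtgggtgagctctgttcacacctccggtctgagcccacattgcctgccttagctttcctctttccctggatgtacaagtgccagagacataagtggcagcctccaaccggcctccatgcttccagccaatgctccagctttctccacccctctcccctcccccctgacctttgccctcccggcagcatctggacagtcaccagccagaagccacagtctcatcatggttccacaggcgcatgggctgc
*F10* promoter, chr8:13037058-13037357, plus strand: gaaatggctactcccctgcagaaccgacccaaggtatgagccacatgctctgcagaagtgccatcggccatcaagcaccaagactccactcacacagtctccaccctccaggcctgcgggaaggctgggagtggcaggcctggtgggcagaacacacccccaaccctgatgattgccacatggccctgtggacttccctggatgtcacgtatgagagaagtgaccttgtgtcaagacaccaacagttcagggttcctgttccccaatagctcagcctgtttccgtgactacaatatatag
*Klkb1* promoter, chr8:45294786-45295085, minus strand: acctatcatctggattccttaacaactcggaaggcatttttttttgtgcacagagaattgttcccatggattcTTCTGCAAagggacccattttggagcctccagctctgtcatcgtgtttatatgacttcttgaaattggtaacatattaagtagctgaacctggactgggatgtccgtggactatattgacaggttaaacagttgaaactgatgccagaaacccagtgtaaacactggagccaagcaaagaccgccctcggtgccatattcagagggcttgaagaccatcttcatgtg
*F11* promoter, chr8:45261982-45262281, minus strand: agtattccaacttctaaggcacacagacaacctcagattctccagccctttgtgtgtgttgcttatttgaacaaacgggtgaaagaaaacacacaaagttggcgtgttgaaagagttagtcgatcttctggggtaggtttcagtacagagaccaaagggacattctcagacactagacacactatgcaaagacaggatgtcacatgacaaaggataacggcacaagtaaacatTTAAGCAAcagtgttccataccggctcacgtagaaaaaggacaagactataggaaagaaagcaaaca

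RefSeq promoters were matched for 32 of the 43 members, 35 promoters in all. A C/EBP motif (TTGCNNAA, either strand) was in 11 of the 35 (31.4%), against 10.8% of 32851 promoters of all genes. The 11 belong to *F9* and *Klkb1*, which were lower, and to *C1ra*, *C1s1*, *C3*, *C9*, *Cpb2*, *F11*, *Fga*, *Fgb* and *Serpinc1*, which did not pass the test. An HNF4 motif was searched only as the exact letters CAAAGTCC. That form was in none of the 35, against 1.42% of all promoters. Other forms of an HNF4 site were not searched, so its absence does not mean that a promoter lacks one. A short HNF1 motif (GTTAATNA) was in 5 (*C4bp*, *C8a*, *Cfp*, *F13b* and *Fga*; 14.3% against 2.54%); it was searched after the full HNF1 palindrome had given no member and 0.0396% of all promoters. These are matches of letters on a list of liver genes, with no test, and no binding was measured.

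The fibrinogen chains and the B subunit of factor XIII gave no call among 4 genes. *Fgb*, the fibrinogen beta chain and the member with most reads, was 2283 to 3016 CPM in AAV-NC and 2080 to 2551 CPM in AAV-TuD (log2 fold change -0.15, SE 0.099, adjusted p = 0.35). *Fga* and *Fgg* had values of -0.08 and -0.12, and *F13b* -0.02.

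Among 5 anticoagulant genes tested, *Pros1*, protein S, the cofactor of activated protein C, was higher. It was 40.6, 35.2, 39.4, 43.7 and 48.9 CPM in AAV-NC and 51.5, 61.1, 46.4, 56.8, 51.7 and 45.7 CPM in AAV-TuD. The groups overlapped, since AAV-NC 8 lay above AAV-TuD 5 and 11. Its log2 fold change was 0.33 (SE 0.097, adjusted p = 0.039), and the call was lost without any one of AAV-NC 1, 2, 6 or 7 or AAV-TuD 4, 9 or 10, with an adjusted p of at most 0.091.

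*Serpinc1*, antithrombin, was 669, 670, 673, 657 and 725 CPM in AAV-NC and 551, 603, 596, 604, 628 and 593 CPM in AAV-TuD. The groups did not overlap, yet the log2 fold change of -0.19 (SE 0.068) did not pass the test (adjusted p = 0.085). In all, 6 of the 43 members had every AAV-TuD liver below every AAV-NC liver, *Serpinc1*, *Masp1*, *Klkb1*, *Kng1*, *F7* and *F10*, against 3.28% of all genes. No member had the reverse, against 4.11%. Both shares are over genes of all levels, and the share among genes as abundant as the members was not computed. *Proc*, protein C, which like *F7* and *F10* depends on vitamin K, had a value of -0.05 (SE 0.07, adjusted p = 0.704).

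The 3 fibrinolysis genes tested had values of -0.16 (*Plg*, plasminogen), -0.20 (*Serpinf2*, the inhibitor of plasmin) and -0.21 (*Cpb2*, which trims the plasmin binding sites of fibrin). None passed the test; *Cpb2* had the most reads, 180 to 242 CPM in AAV-NC and 166 to 193 CPM in AAV-TuD (adjusted p = 0.103).

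**Figure D3:**
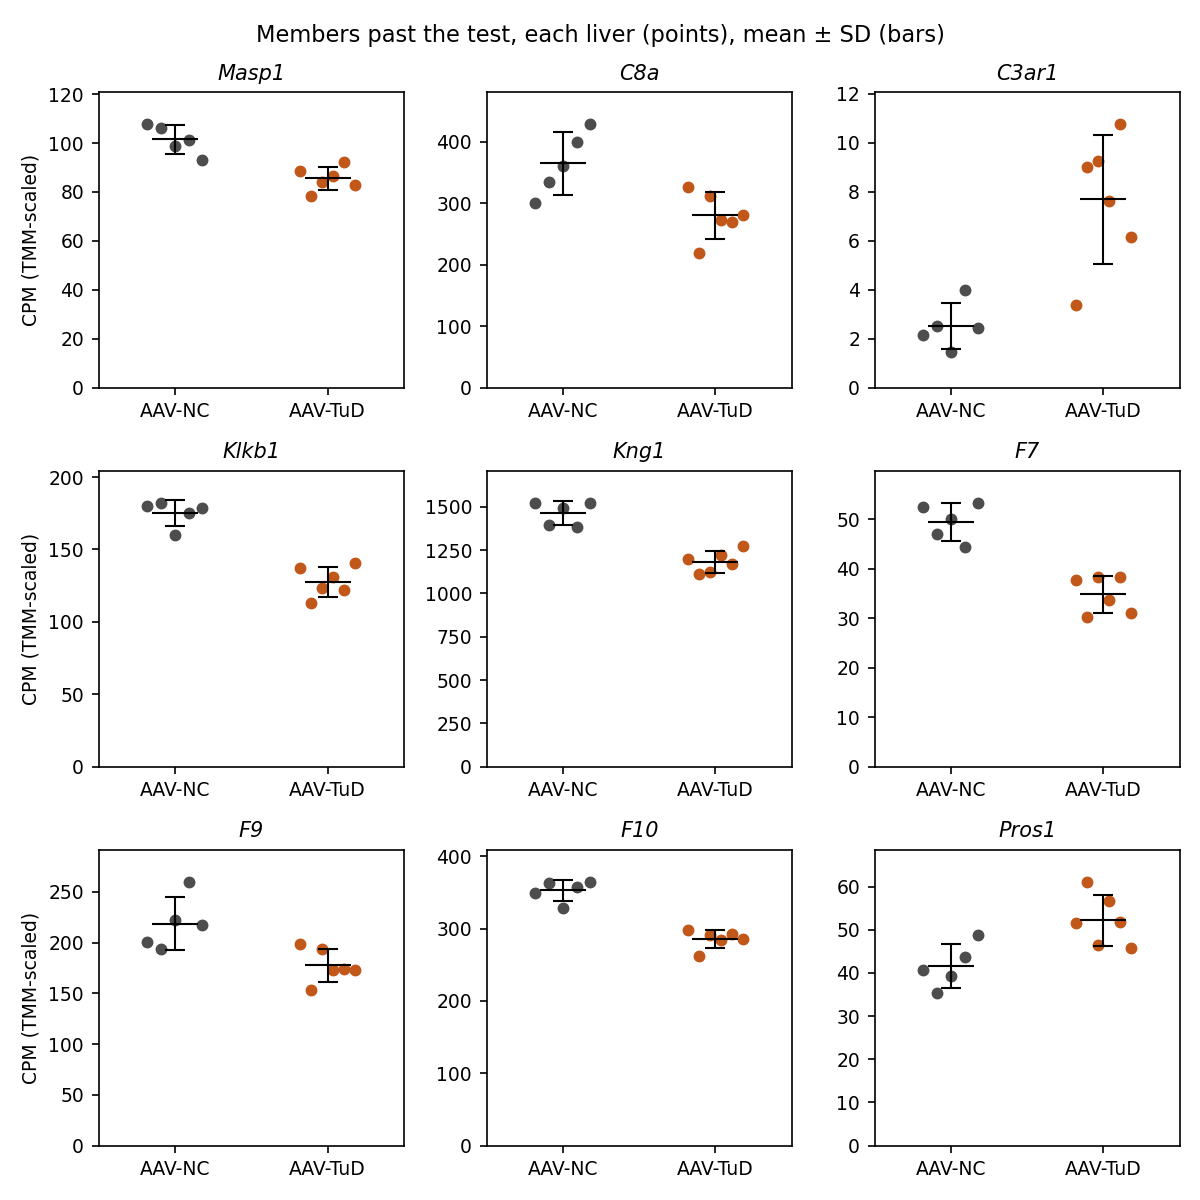
CPM on TMM-scaled library sizes (vertical axis, from 0) of the 9 members past the test in each of the 5 AAV-NC and 6 AAV-TuD livers (points), with the mean and SD of each group. The groups are apart for *Masp1*, *Klkb1*, *Kng1*, *F7* and *F10* and overlap for *C8a*, *C3ar1*, *F9* and *Pros1*.

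In complement, *Masp1* was the 1 gene past the test among 8 of the classical and lectin initiation step. It encodes a protease that mannose-binding lectins activate. It was 108, 106, 98.9, 101 and 93.0 CPM in AAV-NC and 88.4, 78.4, 84.2, 86.7, 92.4 and 82.9 CPM in AAV-TuD. The groups were apart by less than 1 CPM (AAV-NC 8 and AAV-TuD 10). The log2 fold change was -0.25 (SE 0.066, adjusted p = 0.025), and the call was lost without any one of AAV-NC 1 or 2 or AAV-TuD 4 or 11 (adjusted p of at most 0.064). Genes on the opposite strand overlap *Masp1* and *Serpinc1*, and the strand setting of the counting was not given in the sources used here. *Serpinc1* is also overlapped by *Gm37729* on the same strand, which no strand setting would separate.

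*Mbl2*, a mannose-binding lectin and the gene of this step with most reads, was 259 to 424 CPM in AAV-NC and 207 to 371 CPM in AAV-TuD (log2 fold change -0.09, SE 0.16, adjusted p = 0.77). *C1ra* and *C4b* have near copies (*C1rb* and *C4a*, with transcript ends 98.9% and 98.0% identical), so their values, -0.11 and 0.05, are uncertain. *C3*, the hub of all pathways, was 1625 to 2268 CPM in AAV-NC and 1369 to 1875 CPM in AAV-TuD (-0.14, SE 0.11, adjusted p = 0.46).

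The terminal components held 1 lower gene of 5. *C8a*, the alpha chain of C8, was 299.7, 335, 360, 398 and 429 CPM in AAV-NC and 327, 219, 312, 272, 269.7 and 281 CPM in AAV-TuD. The groups overlapped at AAV-NC 1, the lowest control, which lay below AAV-TuD 3 and 5. The log2 fold change was -0.38 (SE 0.11, adjusted p = 0.033), and the call was lost without the same livers as that of *F9*, at an adjusted p of at most 0.081.

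*C8b*, the beta chain and the terminal gene with most reads, lies 11.1 kb from *C8a*. It was 449, 550, 525, 691 and 712 CPM in AAV-NC and 533, 320, 544, 396, 315 and 457 CPM in AAV-TuD. It had a larger fitted value than *C8a*, -0.45 (SE 0.16), and a wider spread, and did not pass the test (adjusted p = 0.074). The third C8 chain, *C8g*, had a value of -0.17 (SE 0.11), and *C6* and *C9* had -0.09 and -0.15.

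None of the 4 complement inhibitors passed the test. *Serping1*, the C1 inhibitor that also blocks kallikrein and factor XII, stood at the threshold, at 607 to 776 CPM in AAV-NC and 500 to 615 CPM in AAV-TuD (log2 fold change -0.28, SE 0.086, adjusted p = 0.0501). *Clu*, clusterin, which binds terminal complexes and has the most reads of this step, was 838 to 1058 CPM in AAV-NC and 905 to 1252 CPM in AAV-TuD (0.22, SE 0.10, adjusted p = 0.17). *C4bp* and *Cfi* had values of 0.17 and 0.02.

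*C3ar1*, the receptor of the C3a fragment, which is found on myeloid cells, had the largest change of the members. It was 2.15, 2.52, 1.44, 4.01 and 2.43 CPM in AAV-NC (13 to 32 reads) and 3.38, 9.02, 9.24, 7.61, 10.8 and 6.16 CPM in AAV-TuD (36 to 125 reads). AAV-TuD 3 lay below AAV-NC 7, and the other 5 AAV-TuD livers stood above all controls. The fitted log2 fold change came to 1.62 (SE 0.29, adjusted p = 0.003). In whole liver, more cells of a type and more RNA per cell cannot be told apart. Of 10 Kupffer cell and macrophage markers, 7 were higher (median log2 fold change 0.95), against 7.24% of all genes. Their summed level was 109 to 170 CPM in AAV-NC and 141 to 388 CPM in AAV-TuD. *Clec4f*, which marks Kupffer cells, had a log2 fold change of 0.89. The part of these cells in the value of *C3ar1* was not tested.

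Other genes of the same cascades, 68 in a list written with earlier results of these data known, gave 9 lower and 5 higher among 48 tested (18.8% and 10.4%). Of all genes tested, 4.33% were lower and 7.24% higher, and of the most abundant 10% of genes 18.7% were lower. The 5 higher were all complement genes: *C1qa*, *C1qb* and *C1qc*, the chains of C1q, with log2 fold changes of 0.79, 0.98 and 0.84 (SE 0.195, 0.22 and 0.175), *Vsig4*, a macrophage receptor for C3 fragments, with 0.93 (SE 0.18), and *Colec11*, a collectin of the lectin pathway, with 0.64 (SE 0.13). C1q and *Vsig4* are made by macrophages, and *Vsig4* is also one of the 10 markers above; the part of these cells was not tested here either. *C1qa* to *C1qc* and *C3ar1* moved the other way from *Masp1* and *C8a*.

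Among the lower genes of this list were *Cpn2* (-0.37) and *C1rl* (-0.30) in complement, *Serpina1d* (-0.40), *Hgfac* (-0.40), *Lman1* (-0.36), *Pzp* (-0.33) and *Kng2* in coagulation, and *Vkorc1* (-0.40, SE 0.077, adjusted p = 0.0044). *Vkorc1* is the reductase that recycles vitamin K and the target of warfarin, and *Lman1* carries factors V and VIII out of the endoplasmic reticulum. *Ggcx*, the carboxylase that uses vitamin K, had a value of -0.01 (SE 0.12, adjusted p = 0.97). Of 25 other plasma protein genes of hepatocytes, 2 were lower (8%, *Apob* and *Itih3*) and 1 higher (4%, *Cp*). Of the members 16.3% were lower and 4.65% higher, and of all genes 4.33% and 7.24%. Of the most abundant 10% of genes, 18.7% were lower. The median of these 25 genes was -0.17, close to that of the members. Of 17 regulators of hepatocyte and acute phase genes, 2 were lower (11.8%). They were *Hnf4a* (-0.38, SE 0.091, adjusted p = 0.015) and *Foxa3* (-0.54, SE 0.14, adjusted p = 0.018).

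Markers of other liver cells also moved. Of all genes tested, 7.24% were higher. Stellate cell and fibroblast markers were higher for 7 of 9 tested (194 to 253 CPM summed in AAV-NC, 340 to 453 CPM in AAV-TuD), cholangiocyte markers for 5 of 5 (21.7 to 42.5 and 49.5 to 82.9 CPM), neutrophil and monocyte markers for 2 of 3, and platelet markers for 1 of 2, while 0 of 10 endothelial markers passed the test (1 at an unadjusted p under 0.05). Their part in the values of the members was not tested.

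The number of lower members changed with the scaling and with the trend in level. With library size alone as the scale, 0 members were lower in the edgeR test (0 also at an unadjusted p under 0.05) and 3 were higher, the median of all genes moved to 0.23 and that of the members to 0.09, and the members still lay 0.14 below all genes. With the trend of fold change with level removed, *Klkb1* and *F7* were the 2 members still lower, and *Masp1*, *C8a*, *Kng1*, *F9* and *F10* were not. Without the 3 livers with most *Mup* reads, an alternative added after the data had been seen, 7 were lower, *C8b* in place of *Masp1*.

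**Figure D4:**
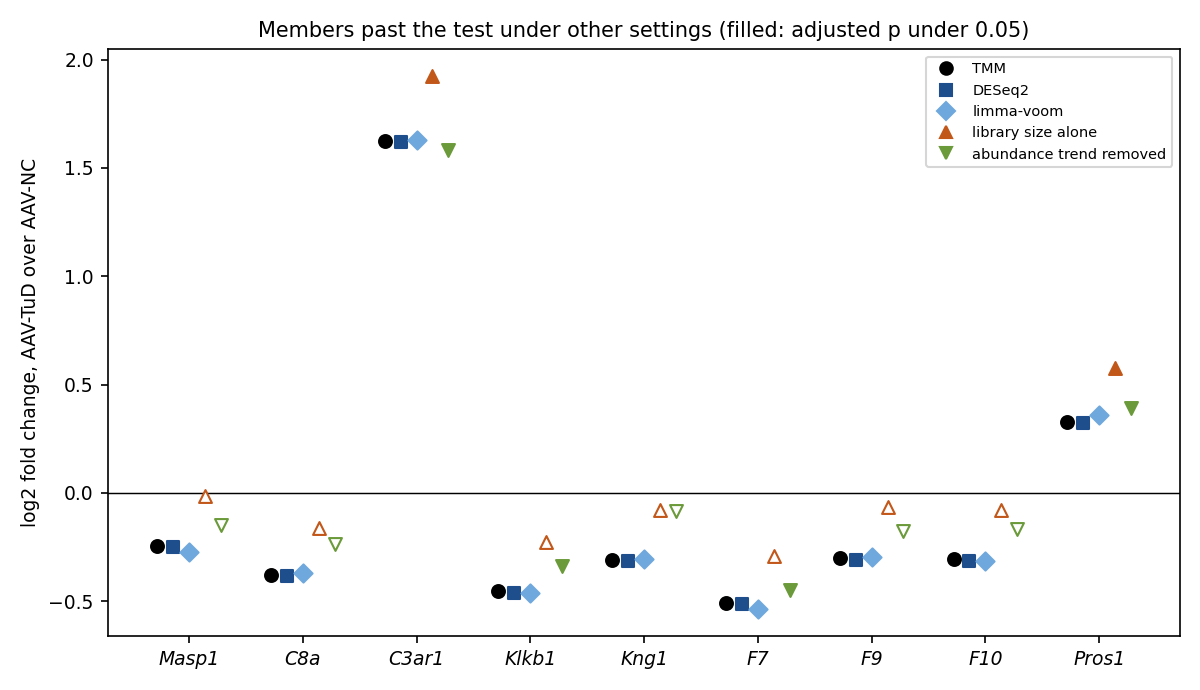
Log2 fold change with AAV-TuD over AAV-NC (vertical axis) of the 9 members past the test, under TMM scaling and 4 alternatives; filled marks had an adjusted p under 0.05. With library size alone (upward triangles) the 7 lower genes are all open, and with the abundance trend removed (downward triangles) *Klkb1* and *F7* are filled among them; *C3ar1* and *Pros1* are filled under all 5.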

How the data were processed

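Counts of reads per gene, as deposited, were made by the authors from QuantSeq 3′ mRNA libraries of liver RNA, with reads trimmed by BBDuk, aligned to GRCm38 with STAR 2.5.3a (per the submitters' processing notes) and counted with Rsubread, with no normalization. A 3′ library gives about one read per transcript end, so transcript length does not enter the counts. The gene annotation, the strand setting and the treatment of multimapping reads were not given in the sources used here. Libraries held 8148531 to 12043959 reads.

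A gene entered the test when over 10 reads were counted in 5 or more livers. Groups were compared by quasi-likelihood in edgeR 4.0.16 (R 4.3.3; TMM, no covariate, Benjamini-Hochberg over all genes tested). The authors used DESeq2 1.38.3; DESeq2 1.42.0 and limma 3.58.1 served as alternatives. Other scalings, filters, removal of a lowess trend (span 0.3) with level, and each liver left out were also tried. The text names members with an adjusted p under 0.05, the member with most reads of each step, members whose groups do not overlap, and genes of the wider list past the test, of which some are not reported here; *F2*, *F11*, *F12*, *C8b*, *Serping1*, *Proc*, *Ggcx* and other members were singled out with their values already known. The members and lists were chosen with earlier results of these data known. That the livers came from separate animals is taken from the study; p-values measure the spread between them.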

Additional observations from a re-analysis of the deposited data

Results flagged for a closer look

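Among 36 groups of named members, 2 had a liver far from the others by Dixon's ratio of the gap to the range, where chance gives about 1.8. *Serpinc1* was highest in AAV-NC 8 (ratio 0.756), at 725 CPM against 657 to 673 CPM in the other AAV-NC livers. *Vwf*, von Willebrand factor, made by endothelial cells, was highest in AAV-NC 6 (ratio 0.724), at 1.77 CPM against 0.973 to 1.19 CPM, close to the filter on low counts. On the log2 scale 2 groups passed as well.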

How the results depend on the processing

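No paired analysis was possible because the AAV-NC and AAV-TuD livers share no replicate number. Of the alternatives, 11 left out one liver each. With library size alone, 0 members were lower, 0 genes of the wider list were lower (0 also at an unadjusted p under 0.05 in edgeR) and 8 were higher, 71 of all genes were lower and 1386 higher in place of 577 and 966, and the members' median was 0.092. With the abundance trend removed, 2 members were lower and 4 higher, 2 genes of the wider list and 304 of all genes were lower, the members' median was 0.018 and its distance from that of all genes 0.016. Leaving out one liver gave 4 to 9 lower and 1 to 3 higher members, 4 to 8 lower and 5 to 7 higher genes of the wider list, and medians of the members from -0.16 to -0.10. All genes lower were 337 without AAV-TuD 4 and 379 without AAV-TuD 10. The count of lower members was 4 without AAV-TuD 4 or AAV-TuD 11, and *Masp1* also lost its call without AAV-NC 1 or AAV-NC 2. DESeq2 called 10 members lower, the 7 together with *C8b*, *Serping1* and *Serpinc1*, and limma-voom 9. *C3ar1* passed the test under all 22 alternatives; *Klkb1* and *F7* passed under all but library size alone, and *Kng1* and *F10* under all but library size alone and the removed trend. At 8148531 to 12043959 reads, members near 1 CPM such as *Vwf* lie close to the filter on low counts, where small differences were not detectable.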
